A study of Arabidopsis thaliana with 9 samples.

Results

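The genes described here encode the side branches of the plant respiratory chain and a group of carriers of the inner mitochondrial membrane. They are 9 of the 28642 genes in the deposited table, picked by name from these pathways with results of the same libraries already known: the alternative oxidases *AOX1A* (AT3G22370) and *AOX1D* (AT1G32350), the type II NAD(P)H dehydrogenases *NDA1* (AT1G07180), *NDA2* (AT2G29990), and *NDB2* (AT4G05020), the uncoupling proteins *UCP1* (AT3G54110) and *UCP2* (AT5G58970), and the dicarboxylate carriers *DIC1* (AT2G22500) and *DIC2* (AT4G24570). Because *DIC2* was on view as a changed gene when the 9 were picked, its values, intervals, and place past or short of the threshold are given as a description, with no p-value, and support nothing.

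Shoots of 2-week-old Arabidopsis thaliana seedlings, grown on agar with sucrose, were sequenced after 48 h of darkness and then 6 h of light, with a photon flux of 100 µmol per m2 and s. There were 3 libraries of each of 3 genotypes: the Col-0 wild type, *vtc2-4*, and *vtc3-3*, all 3 given the same dark and light treatment. The protein missing from *vtc2-4* is the main form of GDP-L-galactose phosphorylase, the enzyme of the step that limits the rate at which plants make ascorbate. A minor form of this enzyme is encoded by another gene, *VTC5*. The protein affected in *vtc3-3* has kinase and phosphatase domains, and its role is not known. Each mutant genotype is 1 T-DNA insertion line (SAIL_769_H05 for the former gene, SALK_095743 for the latter), and a sample of plate-grown plants pools the shoots of several seedlings. The comparisons ask how the loss of either protein, each known to be needed for a full ascorbate pool, is reflected in the transcripts of these genes.

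In the ordinary respiratory chain, electrons pass through complexes that pump protons, and the proton gradient drives ATP synthesis. Plants have branches that avoid the pumping: type II NAD(P)H dehydrogenases feed electrons to ubiquinone from the matrix side (the NDA proteins and NDC1) or from the outer face of the membrane (the NDB proteins), and alternative oxidases pass them from ubiquinol to oxygen. Uncoupling proteins and dicarboxylate carriers belong to the mitochondrial carrier family, which moves metabolites and in some cases protons across the inner membrane. The last step of ascorbate synthesis also takes place at this membrane, where L-galactono-1,4-lactone dehydrogenase hands electrons to cytochrome c.

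The libraries held between 4399733 and 7567492 reads on genes. *VTC2* averaged 687 CPM (reads scaled to the adjusted library size) in the wild type, 691 in *vtc3-3*, and 6.49 in *vtc2-4*, and *VTC3* averaged 17.1, 3.65, and 17.5 CPM in the wild type, *vtc3-3*, and *vtc2-4*, so both labels held. Wild type replicate 1 stood apart: its mean correlation with the other libraries was 0.908, against 0.971 to 0.975 for those, and its deviations from the median of the other libraries correlated with exon length (r = -0.559 on the log2 scale, across genes, which are not independent replicates, against -0.031 to 0.161 in the others). Where the call, sign, or size (by over 1.5 times) of a result changes without it, both values are therefore given for the 9 genes. The same holds for list genes named from the fit of all libraries. Fold changes of the other list genes, named for the fit without it, are from that fit alone. Medians over genes are from all 9 libraries unless said otherwise. The 6 shoot markers had between 64941 and 498366 reads each, and their summed level was 14411 CPM in wild type replicate 1, 26599 and 26985 in the other wild-type libraries, and 26179 to 29289 in the 6 mutant libraries. Their median log2 difference from the wild type was 0.30 in *vtc2-4* and 0.22 in *vtc3-3*, and 0.04 and 0.02 without that replicate; 4 of the 6 root markers had no read, and the others had at most 4 over all 9 libraries. The part that shoot-marker level has in the results was not tested. In bulk shoots, fewer cells of a type and less RNA per cell cannot be told apart.

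To show the sequence in front of the genes on which the results turn, the 250 bases before the annotated gene start were read from the TAIR10.1 genome of RefSeq for *DIC2* (chr4:12686209-12686458, plus strand), for *DIC1*, its closest relative here (chr2:9564851-9565100, minus strand), and for *AOX1A*, the most abundant of the 9 (chr3:7906271-7906520, plus strand). They are written 5′ to 3′ along the gene, and capitals mark every match, on either strand, to 1 of 6 motifs: the W-box core TTGAC bound by WRKY factors, the G-box CACGTG, the rapid stress response element core CGCGTT, the I-box GATAAG, the evening element AAAATATCT of the circadian clock, and the mitochondrial dysfunction motif CTTGNNNNNCANG. The last is a loose form, with any base at each N, of the NAC factor site of genes that respond to impaired mitochondria.
*DIC2*: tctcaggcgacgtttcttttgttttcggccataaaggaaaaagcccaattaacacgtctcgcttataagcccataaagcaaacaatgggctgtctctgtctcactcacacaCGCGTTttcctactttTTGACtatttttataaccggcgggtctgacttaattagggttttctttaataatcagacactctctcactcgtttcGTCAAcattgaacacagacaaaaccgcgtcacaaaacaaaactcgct
*DIC1*: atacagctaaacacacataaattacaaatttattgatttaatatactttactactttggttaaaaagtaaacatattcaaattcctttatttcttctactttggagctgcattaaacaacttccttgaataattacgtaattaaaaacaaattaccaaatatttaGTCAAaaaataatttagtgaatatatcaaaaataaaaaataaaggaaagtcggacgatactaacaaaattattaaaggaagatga
*AOX1A*: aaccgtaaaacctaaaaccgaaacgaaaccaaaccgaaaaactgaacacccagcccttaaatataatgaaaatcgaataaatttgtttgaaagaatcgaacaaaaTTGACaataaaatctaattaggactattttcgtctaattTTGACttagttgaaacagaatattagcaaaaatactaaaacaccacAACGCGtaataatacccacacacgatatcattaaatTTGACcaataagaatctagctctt

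The *DIC2* window held 3 matches, to the rapid stress response element core 139 to 134 bases before the start and to the W-box core 123 to 119 and 47 to 43 bases before it. The *DIC1* window held 1, to the W-box core. The *AOX1A* window held 3 W-box cores and 1 rapid stress response element core, 60 to 55 bases before the start. Over all 27443 protein-coding genes, 44.9% of windows of this length held the W-box core and 2.59% the rapid stress response element core; of the 9 genes, 7 and 2 did, the 2 being *AOX1A* and *DIC2*. The mitochondrial dysfunction motif, in its loose form, was found in 1.75% of all windows and in those of *NDA1* (70 to 58 bases before the start) and *NDB2* (79 to 67 bases before it), where each matched on both strands. These matches are shown because both encode dehydrogenases of the same bypass.
*NDA1*: CTTGCGCATCAAG
*NDB2*: CTTGGCCACCAAG

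The G-box stood in the *UCP2* window and in 6.49% of all windows, and the I-box (12.3%) and evening element (2.36%) matched none of the 9. No match overlapped a match to another motif. A match to such short letters is a description and not a binding site, and its absence says only that these letters are not in this window. A transfer RNA gene lies over part of the *DIC2* window, and a protein-coding neighbour over part of those of *NDB2* and *UCP2*.

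By the positions of the deposited table, whose genome build is not given in the sources used here, *DIC2* (chromosome 4, 12686459 to 12687650) and *DIC1* (chromosome 2, 9563224 to 9564751) each have 1 exon. *AOX1A* (chromosome 3, 7906791 to 7908740) and *AOX1D* (chromosome 1, 11666977 to 11668690) each have 4 exons, *NDA1* (chromosome 1, 2204320 to 2206934) and *NDA2* (chromosome 2, 12793340 to 12795913) have 8, *UCP1* (chromosome 3, 20038680 to 20041210) has 9, and *NDB2* (chromosome 4, 2572621 to 2576595) and *UCP2* (chromosome 5, 23808461 to 23811258) have 11. All of their reads mapped uniquely, and none had more than 37 intron reads over the 9 libraries. The library kit does not mark strand, and in TAIR10.1 *UCP1* and *UCP2* overlap genes on the opposite strand, so reads from these neighbours cannot be told apart from theirs.

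Set side by side per length, as deposited RPKM (exon reads divided by exon length and library total), the 9 genes spanned a wide range. In the wild type *AOX1A* was highest at 68.1 ± 13.8 RPKM (SD, n = 3), followed by *NDA1* at 53.3 ± 4.94, *UCP1* at 36.3 ± 0.191, *NDB2* at 15.9 ± 2.32, *UCP2* at 11.8 ± 4.48, *DIC1* at 9.18 ± 2.16, *NDA2* at 5.38 ± 0.452, and *DIC2* at 4.33 ± 0.959. *AOX1D* was last at 0 to 0.59 RPKM. Among neighbours in this order, the library values of *AOX1A* and *NDA1*, of *NDB2* and *UCP2*, of *UCP2* and *DIC1*, and of *NDA2* and *DIC2* overlapped, so those pairs were not separated beyond their spread. *AOX1A*, *NDA1*, and *UCP1* kept the first 3 places in both mutants. *DIC2* took place 8 in the wild type, 7 in *vtc3-3* (7.03 ± 1.28 RPKM), and 4 in *vtc2-4* (18.5 ± 2.05 RPKM), where its libraries lay above all those of *NDB2*, *UCP2*, and *DIC1*.

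**Figure D1:**
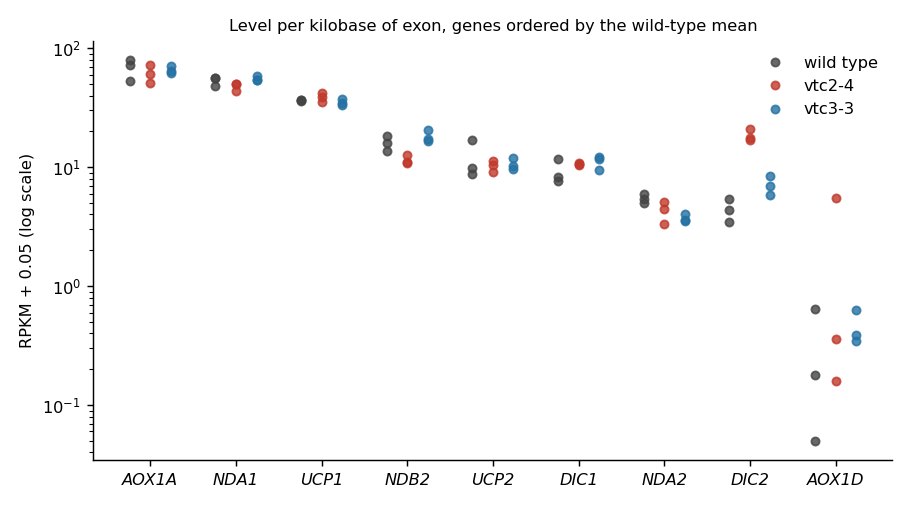
Deposited RPKM plus 0.05 on a log axis for the 9 genes, ordered by their wild-type mean, with 1 point per library and a colour per genotype. *DIC2* reaches a mean of 18.5 RPKM in *vtc2-4* against 4.33 in the wild type, and 1 *vtc2-4* library of *AOX1D* lies far above the other 8.

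Of the 9 genes, 8 had enough reads to be tested in the main fit, and *AOX1D* did not. An adjusted p under 0.05 in edgeR's quasi-likelihood test, over 17388 genes, was taken as the threshold. In *vtc2-4* against the wild type 1 of the 8, *DIC2*, passed it, where 0.598% of all tested genes did (0.426% higher and 0.173% lower). In *vtc3-3* against the wild type none of the 8 passed, where 0.023% of all genes did (0.00575% higher and 0.0173% lower), and none passed with DESeq2. In *vtc3-3* against *vtc2-4* 1 passed, again *DIC2*, where 0.351% of all genes did (0.069% higher and 0.282% lower). In each of the 3 comparisons 2 of the 8 had an unadjusted edgeR p under 0.05. The share of all genes with such a p was not computed, here or beside the lists below. Nothing is read from these counts, since the genes were picked with such results known. The median log2 fold change of the 8 was -0.15, 0.01, and 0.05 in the 3 comparisons, beside medians between -0.01 and 0.00 over all genes. The median of the 8 was not computed without wild type replicate 1. Genotypes did not overlap for 2 of the 8 in *vtc2-4* against the wild type (16.6% of all genes), for 2 in *vtc3-3* against the wild type (12.1%), and for 3 in *vtc3-3* against *vtc2-4* (23.5%). The comparisons share libraries and are not independent of each other.

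**Figure D2:**
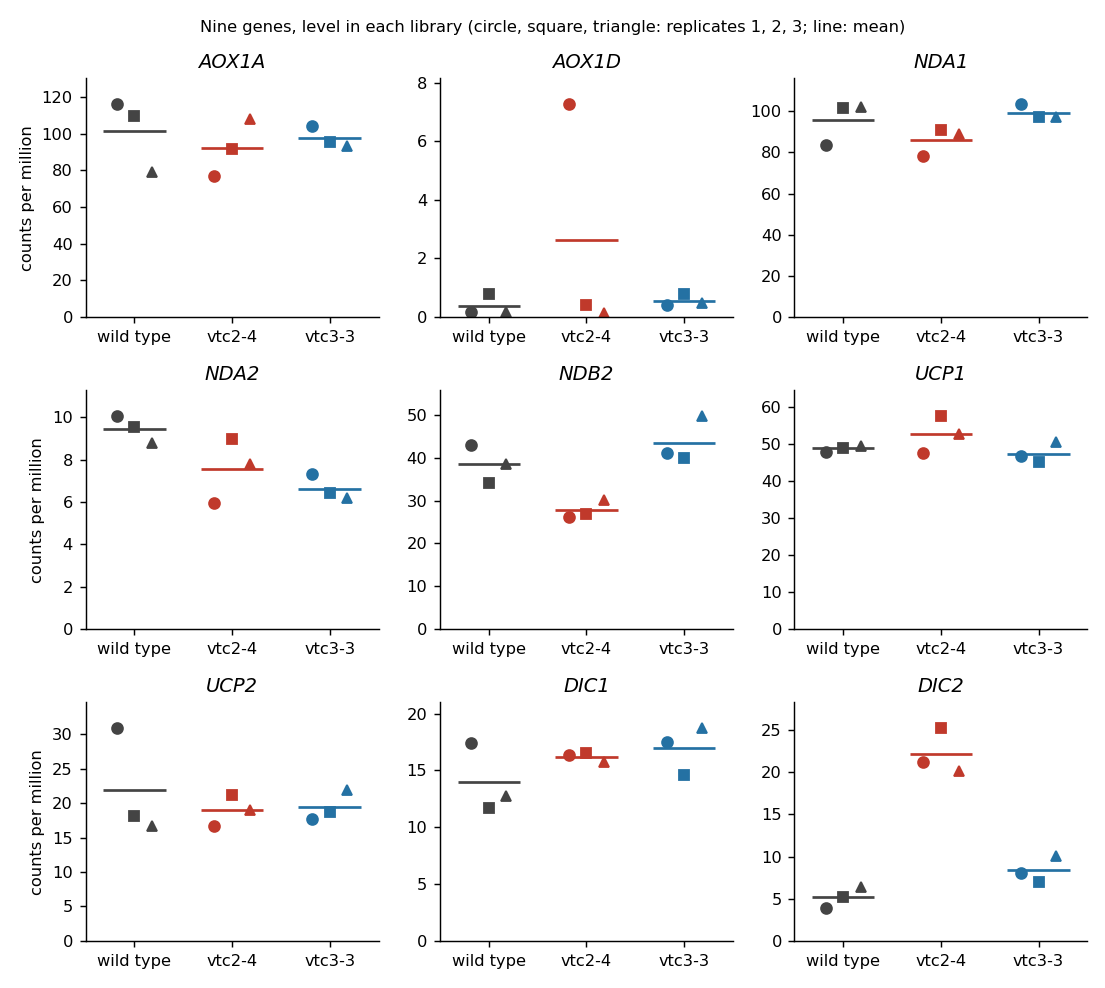
CPM of each of the 9 genes in each library, by genotype, on axes that start at 0, with replicates 1, 2, and 3 as circle, square, and triangle and the genotype mean as a line. The *vtc2-4* libraries of *DIC2* sit between 20.2 and 25.2 CPM, above all others, and those of *NDB2* between 26.1 and 30.1 CPM, below all others.

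*DIC2*, a carrier that exchanges dicarboxylates such as malate for other dicarboxylates or phosphate, was the gene that stood out. The wild-type libraries gave 22, 26, and 37 reads for this gene, those of *vtc2-4* 143, 180, and 140, and those of *vtc3-3* 62, 36, and 44. Scaled to library size these were 3.95, 5.17, and 6.38 CPM for the wild type, 21.2, 25.2, and 20.2 for *vtc2-4*, and 8.10, 7.01, and 10.05 for *vtc3-3*. The 3 genotypes did not overlap, with *vtc2-4* highest and the wild type lowest. The fitted level in *vtc2-4* was 4.28-fold that of the wild type (95% interval 3.1 to 5.92, log2 2.10 ± 0.21 SE). In *vtc3-3* it was 1.61-fold that of the wild type (1.14 to 2.27, log2 0.68 ± 0.22 SE), short of the threshold. The direct comparison put *vtc3-3* below *vtc2-4* by a log2 difference of -1.41 ± 0.20 SE, past the threshold with all 9 libraries, and no longer past it when any 1 of the 6 mutant libraries was left out, with differences of -1.55 to -1.31. Without wild type replicate 1, the library in which *DIC2* was lowest, the log2 difference between *vtc2-4* and the wild type was 1.93.

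*DIC1*, the other dicarboxylate carrier of the list, had 17.4, 11.7, and 12.8 CPM for the wild type, 16.3, 16.6, and 15.7 for *vtc2-4*, and 17.5, 14.6, and 18.7 for *vtc3-3*. Wild type replicate 1 lay within the mutant values and the other wild-type libraries below them. It missed the threshold in both mutants (log2 0.21 ± 0.17 SE, adjusted p = 0.61, in *vtc2-4*, and 0.27 ± 0.18 SE, adjusted p = 0.63, in *vtc3-3*). Leaving out wild type replicate 1 moved these to 0.40 (adjusted p = 0.12) and 0.46 (adjusted p = 0.23).

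Per length, the 2 carriers changed places between genotypes. The RPKM of *DIC2* divided by that of *DIC1* was 0.291, 0.565, and 0.641 in the wild type, 0.593, 0.615, and 0.688 in *vtc3-3*, and 1.67, 1.96, and 1.65 in *vtc2-4*. *DIC1* was thus the higher of the pair in all 6 wild-type and *vtc3-3* libraries, and *DIC2* in all 3 of *vtc2-4*. Their summed level was 13.5 ± 1.56 RPKM for the wild type, 29 ± 2.19 for *vtc2-4*, and 18.1 ± 2.65 for *vtc3-3* (SD, n = 3 each). These ratios use the same *DIC2* values as above and are a description.

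**Figure D3:**
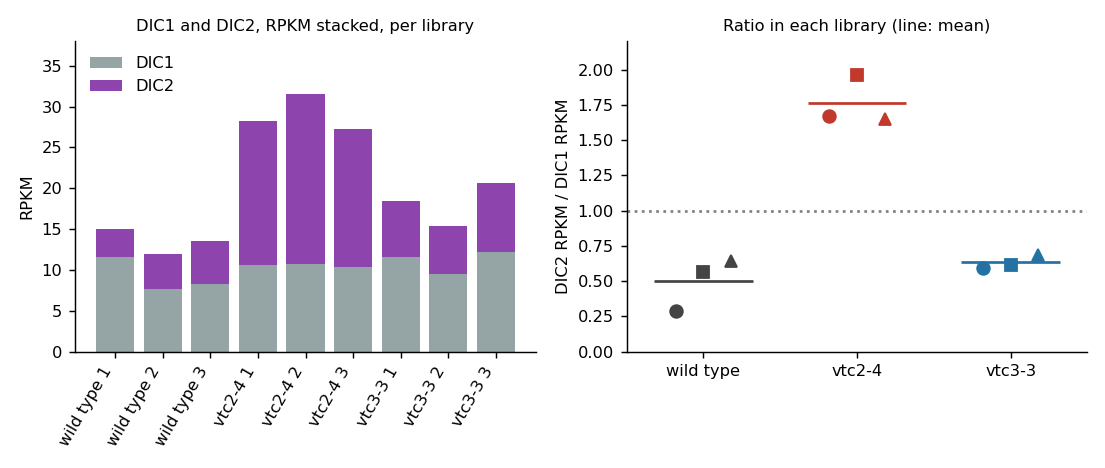
Left, RPKM of *DIC1* and *DIC2* stacked for each of the 9 libraries; right, the ratio of *DIC2* to *DIC1* RPKM in each library by genotype, with replicates 1, 2, and 3 as circle, square, and triangle, the mean as a line, and a dotted line at equal levels. The ratio lies between 1.65 and 1.96 in *vtc2-4* and between 0.291 and 0.688 in the other 6 libraries.

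*NDB2* encodes an external NADH dehydrogenase that is known to be induced together with *AOX1A* under stress. It had 43.0, 34.2, and 38.5 CPM for the wild type, 26.1, 26.9, and 30.1 for *vtc2-4*, and 41.0, 39.9, and 49.8 for *vtc3-3*. The *vtc2-4* libraries were below all 6 others, while the wild type and *vtc3-3* overlapped. The log2 difference between *vtc2-4* and the wild type was -0.48 ± 0.14 SE and missed the threshold (adjusted p = 0.28), and that between *vtc3-3* and *vtc2-4* was 0.65 ± 0.14 SE and missed it too (adjusted p = 0.17). These 2 calls depended on wild type replicate 1: without it *NDB2* passed in both, at -0.39 (adjusted p = 0.047, where 6.05% of all tested genes passed) and 0.64 (adjusted p = 3.23e-04, where 6.76% did). The second also passed with DESeq2 (adjusted p = 0.019), where 131 of all genes did. It passed too with the wild type left out of the fit (adjusted p = 3.58e-04), where 1167 of all genes did, against 61 in the main fit. Against the wild type, *NDB2* in *vtc3-3* was at log2 0.17 ± 0.14 SE (adjusted p = 0.64). The estimated spread among replicates (biological coefficient of variation) was 0.186 with all 9 libraries and 0.0521 without wild type replicate 1.

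The internal dehydrogenases were split into an abundant and a scarce gene. *NDA1*, known as a light-induced gene, had 83.8, 102, and 102 CPM for the wild type, 78.5, 90.9, and 89.1 for *vtc2-4*, and 104, 97.3, and 97.3 for *vtc3-3*. Its *vtc2-4* and *vtc3-3* libraries did not overlap, but the difference was small (log2 0.21 ± 0.12 SE, adjusted p = 1). Against the wild type it was at -0.15 in *vtc2-4* (adjusted p = 0.6), and at -0.24 without wild type replicate 1 (adjusted p = 0.059). In *vtc3-3* it was at 0.05 against the wild type (adjusted p = 0.84), and at -0.03 without that replicate (adjusted p = 0.95). *NDA2* had 10.1, 9.54, and 8.80 CPM for the wild type, 5.94, 8.98, and 7.78 for *vtc2-4*, and 7.31, 6.42, and 6.17 for *vtc3-3*. All *vtc3-3* libraries of *NDA2* were below all wild-type libraries, at log2 -0.50 ± 0.19 SE, which missed the threshold (adjusted p = 0.63). In RPKM *NDA1* made up 89% to 93.9% of the 2 together in every library. The summed RPKM of *NDA1*, *NDA2*, and *NDB2* was 74.6 ± 2.71 for the wild type, 63.5 ± 5.02 for *vtc2-4*, and 77.2 ± 2.93 for *vtc3-3* (SD, n = 3 each).

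*AOX1A*, the main stress-responsive alternative oxidase of leaves, had 116, 109, and 79.0 CPM for the wild type, 76.7, 91.5, and 108 for *vtc2-4*, and 104, 95.6, and 92.9 for *vtc3-3*. The genotypes overlapped throughout, and the spread inside the wild type and inside *vtc2-4* was wider than any difference between means. The fitted level in *vtc2-4* was 0.907-fold that of the wild type (95% interval 0.694 to 1.19, adjusted p = 0.71) and in *vtc3-3* 0.962-fold (0.736 to 1.26, adjusted p = 0.89). Without wild type replicate 1 the log2 differences went from -0.14 to -0.02 and from -0.06 to 0.07. Changes inside these intervals remain compatible with the 3 libraries of each genotype, and the intervals are not limits of detection.

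*AOX1D*, which is known to be induced when *AOX1A* is missing or the cytochrome pathway is blocked, was near the detection limit in 8 of 9 libraries. The wild-type libraries gave 1, 4, and 1 reads, those of *vtc2-4* 49, 3, and 1, and those of *vtc3-3* 3, 4, and 2, where up to 3 reads was taken as the limit. The 49 reads of *vtc2-4* replicate 1 were 7.27 CPM, 9.15 times the highest of the other libraries (0.795 CPM), and the remaining *vtc2-4* libraries did not share them. No fold change between genotypes is given for it. In RPKM *AOX1A* held 90.4% of the sum with *AOX1D* in that library and at least 99.1% in the other 8. A search for genes with at least 20 reads and at least 5 times the highest other library, a rule chosen after the *AOX1D* values were seen, gave 5 genes in *vtc2-4* replicate 1 and at most 1 in any other library. Beside *AOX1D* they were *PR1* (72 reads against at most 11 elsewhere), a marker of salicylic acid responses, *JRG21* (34 against 5), *MAF5* (28 against 5), a repressor of flowering, and AT5G50520 (98 against 0).

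Neither uncoupling protein passed the threshold in any comparison. *UCP1* had 47.8, 48.9, and 49.5 CPM for the wild type, 47.6, 57.5, and 52.7 for *vtc2-4*, and 46.6, 45.0, and 50.5 for *vtc3-3*, with all 3 genotypes overlapping (log2 0.11 ± 0.12 SE in *vtc2-4*, adjusted p = 0.67, and -0.04 ± 0.12 SE in *vtc3-3*, adjusted p = 0.87). Its 95% interval allowed 0.903- to 1.29-fold in *vtc2-4* and 0.81- to 1.16-fold in *vtc3-3*. *UCP2* had 30.9, 18.1, and 16.7 CPM for the wild type, 16.6, 21.2, and 19.0 for *vtc2-4*, and 17.8, 18.7, and 21.9 for *vtc3-3*. Wild type replicate 1 alone was above the rest, and the sign of the *UCP2* difference rested on it: -0.21 with it and 0.13 without it in *vtc2-4*, and -0.18 and 0.14 in *vtc3-3*, none past the threshold. In that library *UCP1* made up 68.2% of the RPKM of the pair, against 75.9% to 80.7% in the other 8.

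**Figure D4:**
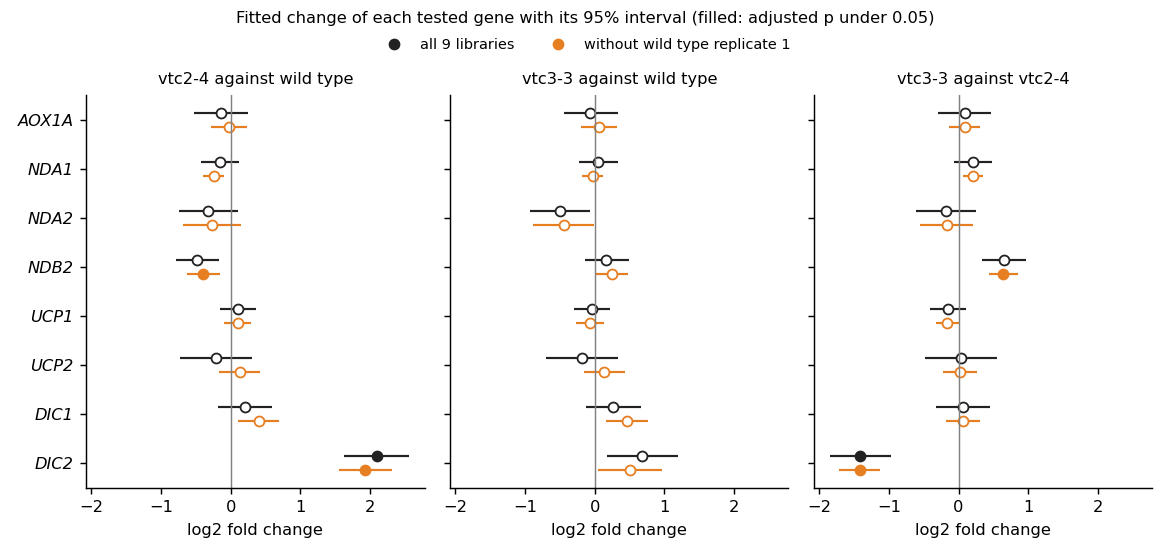
Fitted log2 fold change of the 8 tested genes with 95% intervals in the 3 comparisons, from all 9 libraries (black) and without wild type replicate 1 (orange); filled points passed an adjusted p of 0.05. *DIC2* is filled in *vtc2-4* against the wild type (2.10 and 1.93) and in *vtc3-3* against *vtc2-4* (-1.41 and -1.42), and *NDB2* is filled in those comparisons only without that library (-0.39 and 0.64).

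Further genes of these pathways were described from lists. Of the 5 alternative oxidase genes edgeR tested 2 and DESeq2 fitted 4, and none passed in any comparison by either. None of the 2 had an unadjusted edgeR p under 0.05, while 1 of the 4 had an unadjusted DESeq2 p under 0.05, in *vtc2-4* against the wild type. The 4 include *AOX1D*, whose *vtc2-4* reads lay almost all in 1 library, so nothing is read from this count. *AOX1C*, tested by edgeR beside *AOX1A*, averaged 1.76, 1.29, and 1.75 CPM in wild-type, *vtc2-4*, and *vtc3-3* libraries. Of the 7 type II dehydrogenases 5 were tested and none passed edgeR's test with all libraries, while 2, 2, and 1 had an unadjusted p under 0.05 in *vtc2-4*, in *vtc3-3*, and between the mutants, and *NDB2* passed with DESeq2 as given above. *NDB1*, an external dehydrogenase that prefers NADPH, averaged 17.2 CPM for the wild type, 27.8 for *vtc2-4*, and 25.6 for *vtc3-3* (log2 0.69 ± 0.18 SE, adjusted p = 0.17, and 0.57 ± 0.18 SE, adjusted p = 0.63), and was past the threshold in *vtc2-4* without wild type replicate 1 (0.51, adjusted p = 0.0083). There 2 of the 5 passed, *NDB1* and *NDB2* in opposite directions, where 6.05% of all genes did. Of the 6 genes of the uncoupling protein and dicarboxylate carrier family 5 were tested and *DIC2* was the one that passed, in the same 2 comparisons as above.

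Among 19 other mitochondrial carriers 18 were tested by edgeR, and none passed with all libraries. At an unadjusted edgeR p under 0.05 there were 3, 0, and 2 in the 3 comparisons. With DESeq2 1 passed, *SFC1* as lower in *vtc2-4* than in the wild type, a comparison in which 276 of all genes passed. The median log2 difference of these 18 was -0.04 in *vtc2-4*, 0.09 in *vtc3-3*, and 0.11 between *vtc3-3* and *vtc2-4*. Without wild type replicate 1 this median was -0.06, 0.02, and 0.11. The carriers lowest and highest in *vtc2-4* relative to the wild type were *MPT2*, a phosphate carrier at 1.98 CPM in the wild type and 0.968 in *vtc2-4* (log2 -1.01 ± 0.62 SE, adjusted p = 0.55), and *SAMC1*, a carrier of S-adenosylmethionine (0.25 ± 0.17 SE, adjusted p = 0.57). The value of *SAMC1* rested on wild type replicate 1, with 37.57 CPM against 62.21 and 54.01 in the other wild-type libraries, and was 0.07 without it. In the fit without that library, where 6.05% of all tested genes passed in *vtc2-4* against the wild type, 3 of the 18 carriers passed as lower in *vtc2-4*: *AAC2*, an ADP/ATP carrier (-0.62, adjusted p = 3.24e-04), *SFC1*, a succinate and fumarate carrier (-0.62, adjusted p = 0.011), and *NDT1*, an NAD+ carrier (-0.46, adjusted p = 0.019). In the same fit, where 6.76% of all genes passed between the mutants, *SFC1* (0.60), *NDT1* (0.47), and *APC1*, an ATP-Mg/phosphate carrier (0.34), were higher in *vtc3-3* than in *vtc2-4*.

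Of 18 genes listed for the mitochondrial stress response, which include NAC factors, edgeR tested 16 and DESeq2 fitted all 18. None passed with all libraries by either, with 1, 2, and 2 at an unadjusted edgeR p under 0.05. The median log2 difference of the 16 was -0.01 in *vtc2-4*, 0.12 in *vtc3-3*, and 0.06 between the mutants. This median was 0.03, 0.13, and 0.05 without wild type replicate 1. The widest differences from the wild type were those of *DTX3*, a transporter of the MATE family (0.89 ± 0.34 SE, adjusted p = 0.44, in *vtc2-4*), and *OM66*, an outer membrane ATPase (0.55 ± 0.24 SE, adjusted p = 0.63, in *vtc3-3*). AT5G51440, which encodes a mitochondrial small heat shock protein, averaged 80.5 CPM in *vtc3-3* and 49.5 in *vtc2-4* (0.70 ± 0.20 SE, adjusted p = 0.4). Without wild type replicate 1, 3 of the 16 were past the threshold in *vtc2-4* against the wild type (6.05% of all genes), AT2G41730 (1.07) and *SOT12* (0.66) as higher and *UGT74E2* (-0.53, against -0.32 with all libraries) as lower. Between the mutants 2 were (6.76% of all genes), AT5G51440 (0.69) and *ANAC078* (0.25) both higher in *vtc3-3*. In *vtc3-3* against the wild type, none of the genes of these lists passed without that library, where 0.681% of all tested genes did.

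All 25 genes listed from the cytochrome pathway and other parts of the respiratory chain were tested, and none passed with all libraries by edgeR or DESeq2. The list is wider than the route that alternative oxidase bypasses. It also holds genes of the proton-pumping NADH dehydrogenase (complex I), of succinate dehydrogenase, and of ATP synthase. None had an unadjusted edgeR p under 0.05 (0 of 25 in each comparison), while 1 had an unadjusted DESeq2 p under 0.05, in *vtc2-4* against the wild type. The medians of the 25 were 0.02, 0.08, and -0.01 in the 3 comparisons, and -0.01, -0.01, and -0.02 without wild type replicate 1. The widest difference with all libraries was that of *CYTC-2*, 1 of the cytochrome c genes, at 50.2 CPM in the wild type and 30 in *vtc2-4* (-0.75 ± 0.36 SE, adjusted p = 0.51). That difference rested on wild type replicate 1: *CYTC-2* had 86.10 CPM there, 29.61 and 35.03 in the other wild-type libraries, and 24.93, 32.96, and 31.99 in *vtc2-4*, and the log2 difference was -0.11 without it. In the fit without that library 1 of the 25, *SDH1-1*, a subunit of succinate dehydrogenase, was past the threshold, at -0.24 in *vtc2-4* against the wild type (6.05% of all genes) and at 0.20 in *vtc3-3* against *vtc2-4* (6.76%).

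The genes whose log2 CPM followed *DIC2* most closely over the 9 libraries were *XT1*, a xyloglucan xylosyltransferase (Pearson's r = 0.979), *ATCTH*, a zinc finger protein (0.974), AT1G80440 (0.969), the transcription factor *MYB73* (0.968), and AT3G23080 (0.966). Each averaged highest in *vtc2-4*: *ATCTH* 13.9, 61.8, and 22.6 CPM, AT1G80440 5.85, 46.9, and 11.2 CPM, and *MYB73* 10.8, 41.5, and 14.3 CPM in wild-type, *vtc2-4*, and *vtc3-3* libraries. *XT1* averaged 13.3, 23, and 15.6 CPM and AT3G23080 14.4, 23.8, and 15.7 CPM in the same order. For *AOX1A* the closest were *MGT6*, a magnesium transporter (0.977), the ABC transporter *ABCC7* (0.931), AT5G58575 (0.924), AT2G18465 (0.905), and *TTL4* (0.902), which, like *AOX1A*, did not pass in any comparison. Among the 8 tested genes themselves r ran from -0.73 (*NDB2* and *DIC2*) to 0.62 (*UCP1* and *DIC2*). These correlations are descriptions over 9 libraries that fall into 3 genotypes and share their depth between genes. The named neighbours were picked by them, so their likeness to *DIC2* or *AOX1A* across genotypes follows from the picking.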

How the data were processed

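The authors mapped MiSeq reads of TruSeq RNA v2 libraries and counted them per gene in CLC Genomics Workbench 9.5.2; build, annotation, mapping settings, and use of strand are not given in the sources used here. The deposited read counts are whole numbers per gene and library, without normalization. The deposited RPKM is the authors' scaling of exon reads to exon length and to the gene reads of the library. Of 171 per-library columns 121 were not used, and neither were 15 columns of the authors' own comparisons, which hold p-values and fold changes. Libraries were assigned to genotypes by their titles.

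Counts were filtered with filterByExpr (minimum count 10), normalized by TMM, and fitted with edgeR 4.0.16 (quasi-likelihood, R 4.3.3) on all 9 libraries, with genotype as the only term and Benjamini–Hochberg adjustment over 17388 genes. CPM use TMM-adjusted library sizes. RPKM, which is not TMM-adjusted, was used to compare genes, for places, sums, and ratios by genotype, and in the limma alternatives. The intervals come from the quasi-likelihood fit of counts, so they hold counting error as well as the spread between libraries. The limit of 3 reads was a fixed value. The 3 libraries of a genotype are biological samples per the study's methods. Alternatives were DESeq2 1.42.0, upper-quartile scaling, no filter or a mean of at least 10 counts, exon or uniquely mapped reads, removal of a trend with exon length, limma 3.58.1 on log2 RPKM plus 0.1 or 1, only the 2 genotypes compared, a replicate block, and leaving out each library.

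The 9 genes and all gene lists (alternative oxidases, type II dehydrogenases, uncoupling and dicarboxylate carriers, other mitochondrial carriers, mitochondrial stress response, cytochrome pathway with other parts of the respiratory chain, and shoot and root markers) were chosen with earlier results of these data known. Named from each list were the genes past the threshold in any comparison or otherwise among the largest rise and fall, and for *AOX1A* and *DIC2* the 5 genes with the highest correlation. Genes named only for the fit without wild type replicate 1, and those of the single-library search, were chosen after their values were seen. Of the 28642 identifiers 28009 matched TAIR10.1, but only 21.5% of those had the same start and end as the deposited table, so TAIR10.1 gave windows and overlaps only.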

Additional observations from a re-analysis of the deposited data

How the results depend on the processing

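*DIC2* in *vtc2-4* against the wild type was past the threshold under all 9 left-out libraries (1.93 to 2.28 on the log2 scale) and all 11 other alternatives (1.88 to 2.18), a description only, since the gene was picked with this change known. Counts of genes past the threshold moved more. With the exon-length trend removed they were 210 in *vtc2-4* and 95 in *vtc3-3* against *vtc2-4*. With only the 2 genotypes compared they were 34 in *vtc2-4*, 0 in *vtc3-3*, and 1167 between the mutants, and with DESeq2 276, 18, and 131, where edgeR gave 104, 4, and 61. Both settings gave 2 of the 8 genes (*DIC2* and *NDB2*) between the mutants. Leaving out 1 library gave 32 to 1066, 1 to 120, and 8 to 1191 genes, the highest each time without wild type replicate 1, and 1 to 2, 0, and 0 to 2 of the 8. Of 480 fold changes of these genes under an alternative, 10 changed sign, none of them past the threshold: *UCP1* in *vtc3-3* was 0.01 with the length trend removed, and leaving out 1 library gave ranges of -0.37 to 0.13 for *UCP2* in *vtc2-4*, of -0.34 to 0.14 for *UCP2*, -0.21 to 0.07 for *AOX1A*, and -0.03 to 0.10 for *NDA1* in *vtc3-3*, and of -0.06 to 0.12 for *UCP2*, -0.03 to 0.22 for *AOX1A*, and -0.01 to 0.16 for *DIC1* between the mutants. Apart from the left-out library itself, the causes were not tested. Replicate numbers were not taken as pairs, since no source says that they mark a shared batch and the deviations of same-numbered samples correlated only at -0.025 to 0.09. As a hint from the data, the same number correlated best in 13 of 18 pairings of a library with another genotype, where an even share would be 6. The pairings share libraries, and the deviations are from genotype means, so the 18 are not independent of each other. A replicate block gave 70, 4, and 51 genes and 1, 0, and 1 of the 8. The filter on low counts left *AOX1D* out of the main fit.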
